A study of Mus musculus with 15 samples.

Results

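The axon guidance ligands and receptors described here are the 67 protein-coding mouse genes whose symbols place them among the semaphorins, plexins, ephrins, Eph receptors, Robo receptors and Slits, together with Nrp1, Nrp2, Ntn1, Ntn4, Dcc and Unc5a to Unc5d. They were chosen by symbol from 36528 gene identifiers listed, with earlier results of these data known, and comprise 33 ligands and 34 receptors. Polyadenylated RNA was measured in 15 libraries of laser-captured tumour nests from frozen skin of mice that develop basal cell carcinoma, a skin tumour driven by Hedgehog signalling. All 3 groups carried K14Cre-ER, Ptch1fl/fl, p53fl/fl and Lgr5GFP, and each held 5 libraries: nests that remained after 28 days of vismodegib, untreated Ki67-positive nests and untreated Ki67-negative nests. K14Cre-ER is a Cre recombinase under the keratin 14 promoter. The floxed alleles are thus removed in basal epithelial cells and their descendants, and not in cells of other lineages caught in a nest. Vismodegib inhibits Smoothened, the signal transducer of the Hedgehog pathway, and Ki67 is an antigen of dividing cells. No age of the mice is given in the sources used here. The labels tie no library to an animal, so some nests of 1 group may be from the same mouse. P-values would then come out too small, and part of the spread they rest on may be technical. The Ki67-negative libraries carry sample numbers in a separate, later block than those of the other groups. The labels name no batch, so any difference that goes with this block cannot be told apart from the Ki67-negative group.

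Axon guidance genes encode cues and receptors first known for steering growing nerve fibres, and most of them also act in epithelia and vessels. Semaphorins bind plexins, and most class 3 semaphorins, the secreted ones of vertebrates, need a neuropilin as co-receptor. Ephrins are membrane-bound ligands of the Eph receptor tyrosine kinases and signal between touching cells, with ephrin-A proteins held by a lipid anchor and ephrin-B proteins spanning the membrane. Slits bind Robo receptors, and netrins bind Dcc and Unc5 receptors. In skin, Eph-ephrin signalling is known for its part in epidermal cell sorting and growth, and semaphorins for guiding sensory nerves.

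The promoters of 4 members are shown as examples of the falls and rises described below. Other members changed as clearly, among them Sema3b, which had the smallest adjusted p of all members against Ki67-positive nests. Ephb1 had the largest fall of all members, and Nrp2 the largest fall of a highly expressed one. Efnb2 was the most abundant member by its mean over all libraries, though it ranked 3 in Ki67-negative nests, and it rose. Sema4b rose with little spread between libraries. Each line gives the 250 bases before the annotated gene start, in the direction of transcription, from RefSeq on GRCm38.p6. Capitals mark matches to 4 short motifs searched on both strands: ACCACCC (core of the Gli motif), CTTTGAT (TCF/LEF), TGANTCA (AP-1) and CCGGAA (ETS).
Ephb1, chr9:102354694-102354943, minus strand: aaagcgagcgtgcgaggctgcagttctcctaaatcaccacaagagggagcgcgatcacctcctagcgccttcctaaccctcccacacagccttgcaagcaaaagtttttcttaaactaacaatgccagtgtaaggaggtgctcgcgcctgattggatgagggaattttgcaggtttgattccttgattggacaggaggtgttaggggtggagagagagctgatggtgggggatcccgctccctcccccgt
Nrp2, chr1:62703067-62703316, plus strand: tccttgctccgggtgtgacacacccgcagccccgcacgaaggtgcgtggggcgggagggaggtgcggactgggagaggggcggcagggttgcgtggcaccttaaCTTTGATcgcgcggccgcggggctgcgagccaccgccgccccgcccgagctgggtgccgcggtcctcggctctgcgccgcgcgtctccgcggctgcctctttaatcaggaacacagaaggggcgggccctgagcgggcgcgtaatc
Efnb2, chr8:8661243-8661492, minus strand: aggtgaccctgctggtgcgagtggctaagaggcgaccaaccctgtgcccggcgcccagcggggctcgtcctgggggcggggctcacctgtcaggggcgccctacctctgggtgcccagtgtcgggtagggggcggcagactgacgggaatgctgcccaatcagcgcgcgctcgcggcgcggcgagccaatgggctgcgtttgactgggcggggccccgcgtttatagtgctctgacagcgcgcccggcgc
Sema4b, chr7:80186620-80186869, plus strand: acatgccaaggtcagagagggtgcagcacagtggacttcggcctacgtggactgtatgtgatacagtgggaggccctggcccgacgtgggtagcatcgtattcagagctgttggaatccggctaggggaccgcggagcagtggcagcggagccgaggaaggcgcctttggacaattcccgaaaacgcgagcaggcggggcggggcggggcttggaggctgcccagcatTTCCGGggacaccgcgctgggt
The GC content of these stretches was 54%, 72.4%, 72% and 64.4% in that order. Nrp2 held the only TCF/LEF match among members, 146 bases before its start, and Sema4b held an ETS match in reverse complement 22 bases before its start. Ephb1 and Efnb2 held none of the 4 motifs.

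RefSeq promoter windows of 300 bases (250 before and 50 after the start) were found for 57 of the 67 members, in 73 windows. The Gli core was in 3 member windows, those of Robo4, Sema6b and Unc5a, or 4.11% against 4.61% of all 32851 windows. The TCF/LEF motif was in 1.37% of member windows and 3.73% of all. AP-1 was in 3 windows, those of Sema4c, Sema4d and Sema6b, or 4.11% against 7.81% of all. ETS was in 7 windows, those of Ephb2, Ephb6, Plxnb1, Sema3d, Sema4a, Sema4b and Unc5b, or 9.59% against 14.9% of all. Median GC content was 64.3% in member windows and 52.7% in all. A match is a description of letters in this window and no more.

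Total counts per library ranged from 6413055 to 10328822 after vismodegib, from 4929869 to 8359195 in Ki67-positive nests and from 4887381 to 7158143 in Ki67-negative nests. Ki67-negative library 5 had a count for 19669 genes, against 21653 to 23322 in the other 14. Xist exceeded Ddx3y, a Y-linked gene, in 5 libraries, 3 of them after vismodegib and 1 in each untreated group, and no call of a member was lost with this as a covariate. The summed level of 10 keratinocyte and basal cell markers was 16869 to 21549 CPM (counts scaled to library size) after vismodegib, 9360.2 to 11095 in Ki67-positive and 7065 to 11531 in Ki67-negative nests. In bulk samples, fewer cells of a type and less RNA per cell cannot be told apart.

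Every member had at least 1 count, and 55 of the 67 passed the filter on low counts and were tested. The 12 that did not pass were Epha5, Epha6, Epha8, Epha10, Robo3, Slit1, Sema5b, Sema6b, Dcc, Unc5a, Unc5d and Plxnb3, whose highest CPM in any library lay between 0.393 and 5.66. Dcc, the classical netrin receptor, had 5 counts in all, each in a vismodegib library, and Slit1 had 117. Compared per length, in length-scaled read levels divided by a size factor (RPKM), 35 members had a mean above 1 over the 15 libraries and 18 a mean above 5. Efnb2, the ephrin-B2 ligand, led with 29.1 RPKM, followed by Sema5a, a membrane semaphorin, with 18.5 and Efna1, the ephrin-A1 ligand, with 16. Nrp2, the neuropilin-2 co-receptor, came next with 9.81 RPKM, and then Ephb4, the receptor of ephrin-B2, with 9.51. In untreated nests Nrp2 ranked 4 of 67 in either group, and after vismodegib it ranked 27.

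Against Ki67-positive nests, 8 of the 55 tested members (14.5%) were higher after vismodegib and 15 (27.3%) lower, where 12.6% and 13.4% of all 17282 genes were called higher and lower by edgeR's quasi-likelihood test at an adjusted p under 0.05. Against Ki67-negative nests, 9 (16.4%) were higher and 15 (27.3%) lower, beside 15.4% and 16.5% of all genes. The share of members called higher thus lay near that of all genes, while the share called lower lay above it. Groups did not overlap for 15 members (27.3%) in the first comparison and 17 (30.9%) in the second, beside 20.3% and 20.5% of all genes. Median log2 fold changes were -0.04 and -0.06 over members and -0.02 and -0.03 over all genes tested. Both comparisons use the same 5 vismodegib libraries, so their agreement is no independent repeat.

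Receptors supplied more of the falls: of 25 tested, 3 (12%) were higher and 9 (36%) lower against Ki67-positive nests. Against Ki67-negative nests 4 (16%) were higher and 9 (36%) lower. Of 30 tested ligands, 5 (16.7%) were higher and 6 (20%) lower in each comparison. The shares of all genes were 12.6% higher and 13.4% lower in the first comparison, and 15.4% and 16.5% in the second. The difference between receptors and ligands was not tested. Changes over 2-fold were called for 5 members higher (9.09%) and 9 lower (16.4%) against Ki67-positive nests, beside 7.22% and 8.92% of all genes. Against Ki67-negative nests they were called for 6 higher (10.9%) and 12 lower (21.8%), beside 8.07% and 10.6% of all genes. Sema4f reached the 5 libraries above 1.5 CPM that the filter on low counts asks for with 4 vismodegib libraries and 1 Ki67-negative library, so its test depended on the group in which it was higher. Epha3 reached them with 3 Ki67-positive and 2 Ki67-negative libraries, and Ephb1 was past the minimum in all 10 untreated libraries. Neither had a vismodegib library past it, so their tests also depended on the groups in which they were higher.

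**Figure D1:**
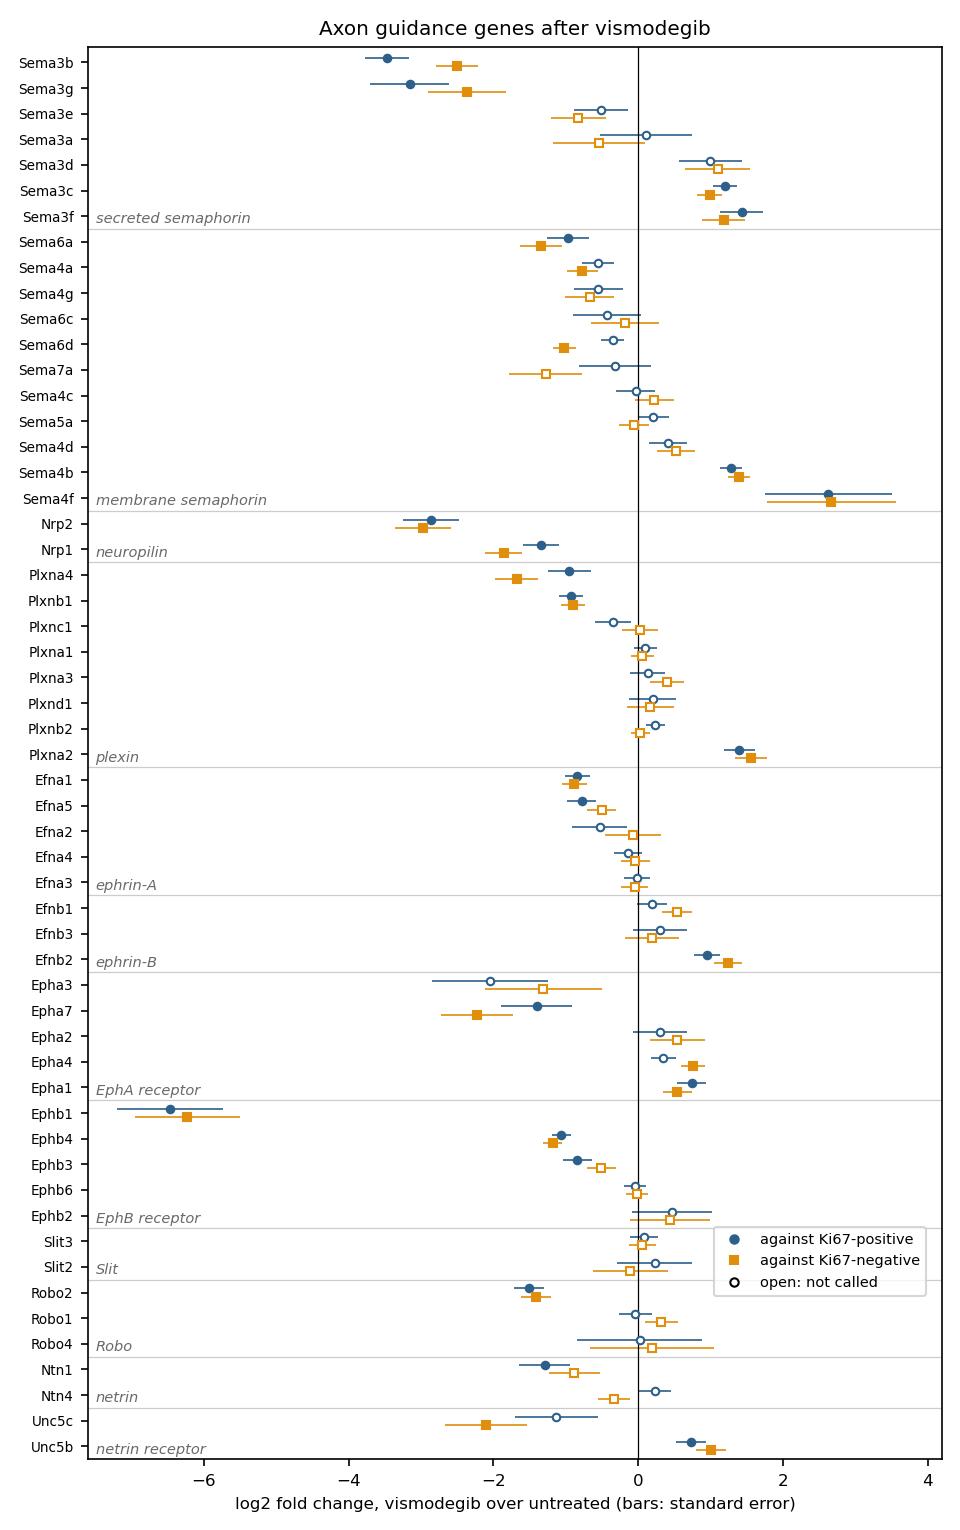
Log2 fold change of each of the 55 tested members in vismodegib nests over untreated nests (x axis; bars are standard errors), grouped by family, with circles for the comparison with Ki67-positive and squares for that with Ki67-negative nests, filled where called. Ephb1 lies furthest left at -6.47 and -6.23, both neuropilins lie left of 0, and most families hold genes on both sides.

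Among the secreted class 3 semaphorins, Sema3b and Sema3g fell and Sema3c and Sema3f rose after vismodegib in both comparisons, and the other 3 were not called. Sema3b, a repelling cue that signals through neuropilins, stood at 2.16, 3, 2.28, 2.19 and 2.75 CPM in the vismodegib libraries. It stood at 18.7, 32.8, 36.4, 34.9 and 14.4 CPM in Ki67-positive and at 16.8, 16.6, 10.7, 10.3 and 16.3 CPM in Ki67-negative nests. Every vismodegib library lay below every untreated one. The log2 fold change was -3.47 (SE 0.30, adjusted p = 2.38e-07, edgeR quasi-likelihood test) against Ki67-positive nests, or 11.1-fold lower, and -2.51 (SE 0.29, adjusted p = 5.58e-06) against Ki67-negative nests.

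Sema3g, best known as a vessel semaphorin, stood at 0.771, 1.58, 1.78, 3.28 and 1.7 CPM after vismodegib. Ki67-positive nests held 23.2, 7.4, 9.39, 27.3 and 15.8 CPM, and Ki67-negative nests 8.23, 15.2, 11.1, 12.4 and 1.2 CPM. Only Ki67-negative library 5 fell within the vismodegib range. The log2 fold changes were -3.16 (SE 0.55, adjusted p = 0.00032) and -2.37 (SE 0.54, adjusted p = 0.00282). With the fibroblast markers as a covariate the second missed the threshold (-1.66, adjusted p = 0.0599) and the first was -2.46 (adjusted p = 0.00773). The second also missed it by voom (-2.04, adjusted p = 0.0678).

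Sema3c, which can attract or repel cells through neuropilins and plexins, was the most abundant secreted semaphorin after vismodegib, with 144, 259, 149.9, 223 and 211 CPM. It stood at 79.4, 88.8, 92.1, 90.0 and 80.3 CPM in Ki67-positive and at 92.9, 119, 112, 101 and 73 CPM in Ki67-negative nests, with no overlap. It rose by 1.20 on the log2 scale (SE 0.17, adjusted p = 4.34e-05) and by 0.99 (SE 0.17, adjusted p = 0.000221). Sema3f, a ligand with a preference for neuropilin-2, stood at 30.2, 33.4, 25.9, 11.7 and 26.1 CPM after vismodegib. Ki67-positive nests held 7.06, 6.43, 11.2, 15.3 and 6.88 CPM and Ki67-negative nests 7.74, 12.6, 9.9, 11 and 14.8 CPM. Vismodegib library 4 lay among the untreated ones and the other 4 lay above them all. Its log2 fold changes were 1.43 (SE 0.30, adjusted p = 0.00178) and 1.18 (SE 0.30, adjusted p = 0.00619), the latter 0.92 (adjusted p = 0.0961) with the fibroblast covariate.

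Sema3e, the plexin-D1 ligand that needs no neuropilin, was the most abundant secreted semaphorin in untreated nests and was not called (-0.51, adjusted p = 0.344, and -0.83, adjusted p = 0.104). Sema3d ranged from 14.9 to 69.1 CPM after vismodegib, with log2 fold changes of 1.0 (adjusted p = 0.107) and 1.10 (adjusted p = 0.0679). Sema3a, the founding member of the class, had values of 0.11 (adjusted p = 0.917) and -0.54 (adjusted p = 0.55). In the summed RPKM of the 7 genes, Sema3c made up 51.8% ± 8.03 (SD, n = 5) after vismodegib, against 27.6% ± 7.07 in Ki67-positive and 29.2% ± 9.7 in Ki67-negative nests. Sema3b made up 0.681% ± 0.115 against 9.46% ± 4.78 and 4.14% ± 1.27. The family's total differed by less than its spread, at 20.9 ± 3.53, 18.2 ± 4.14 and 20.4 ± 5.11 RPKM.

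**Figure D2:**
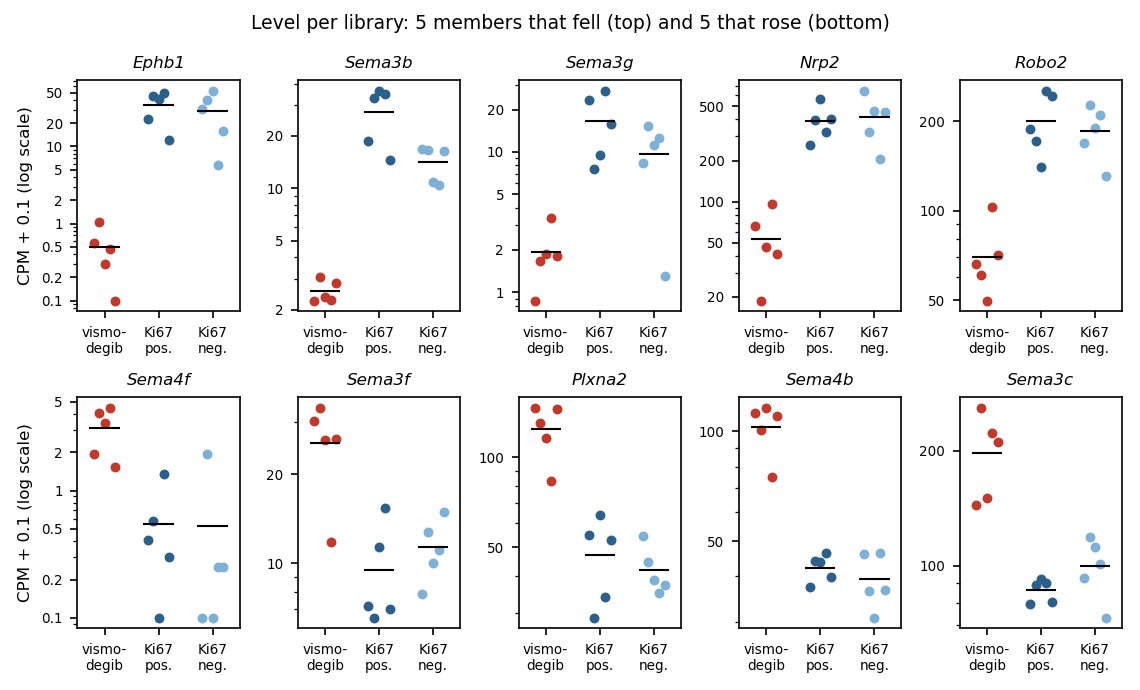
Level of 10 members in each library (CPM + 0.1, log scale; points are libraries, lines group means) after vismodegib and in Ki67-positive and Ki67-negative nests. In the top row the vismodegib points of Ephb1, Sema3b, Nrp2 and Robo2 lie below every untreated point, and in the bottom row those of Plxna2, Sema4b and Sema3c lie above every untreated point.

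Both neuropilins, the co-receptors of these secreted ligands, fell after vismodegib. Nrp2 stood at 65.8, 18.7, 46, 95.5 and 41 CPM in the vismodegib libraries. It stood at 259, 395, 566, 321 and 400.5 CPM in Ki67-positive and at 652, 324, 465, 204 and 452 CPM in Ki67-negative nests. The highest vismodegib library stayed below the lowest untreated one. Nrp2 was 7.26-fold lower than in Ki67-positive nests (log2 fold change -2.86, SE 0.39, adjusted p = 7.41e-05) and 7.84-fold lower than in Ki67-negative nests (-2.97, SE 0.39, adjusted p = 4.64e-05).

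Nrp1, which also serves as a co-receptor for vascular endothelial growth factor, stood at 20.2, 12.5, 19.3, 35.1 and 23 CPM after vismodegib. Ki67-positive nests held 71.2, 51.6, 36.6, 60.6 and 59.9 CPM, and Ki67-negative nests 72.3, 99, 83.6, 96.6 and 50.7 CPM. Again no vismodegib library reached an untreated one, though vismodegib library 4 came close to Ki67-positive library 3. The log2 fold changes were -1.34 (SE 0.25, adjusted p = 0.000576) and -1.86 (SE 0.25, adjusted p = 2.6e-05). Summed over both genes, the neuropilins made 2.73 ± 1.33 RPKM (SD, n = 5) after vismodegib, 15.6 ± 3.35 in Ki67-positive and 17.8 ± 5.29 in Ki67-negative nests, and Nrp2 supplied 64%, 83.7% and 78.5% of it.

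Neuropilins and Sema3g are also expressed by vessels, and the 10 endothelial markers (Pecam1, Cdh5, Kdr, Tek, Tie1, Emcn, Esam, Vwf, Cldn5 and Egfl7) were measured beside them. Their summed level was 32.2 to 71 CPM after vismodegib, 16.9 to 71.4 in Ki67-positive and 16 to 99.2 in Ki67-negative nests, and 0 of the 8 that could be tested were called in either comparison. Pecam1, the pan-endothelial adhesion molecule, had log2 fold changes of -0.03 (adjusted p = 0.977) and -0.21 (adjusted p = 0.803). Of 9 tested pericyte and smooth muscle markers 6 were lower in each comparison, with sums of 153 to 273, 675 to 1013 and 739.5 to 1127 CPM. Cspg4 and Mcam, which made up most of that sum in untreated nests, had log2 fold changes of -2.72 and -3.41 against Ki67-positive nests. Kcnj8 (-2.66), Acta2 (-1.81), Pdgfrb (-1.41) and Tagln (-0.94) were also called lower there. Rgs5 (0.17, adjusted p = 0.866), Myh11 (0.24, adjusted p = 0.822) and Notch3 (0.72, adjusted p = 0.0743) were not called. Fibroblast markers summed to 2220.3 to 6783, 4127 to 9414 and 5069.7 to 10146 CPM, with 5 of 12 lower in each comparison. The part of pericyte-list and fibroblast-list cells in the neuropilin and Sema3g values was not tested. With the fibroblast covariate, which holds no pericyte-list gene, both neuropilins were still called in both comparisons. Sema3g was then called against Ki67-positive nests but not against Ki67-negative nests.

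Among the membrane semaphorins, Sema4b and Sema4f rose and Sema6a fell in both comparisons, Sema4a and Sema6d were called lower against Ki67-negative nests, and 6 of the 11 tested were called in neither. Between the untreated groups neither Sema4a (0.21, adjusted p = 0.907) nor Sema6d (0.68, adjusted p = 0.144) was called. Sema4b, a class 4 transmembrane semaphorin, stood at 112, 101, 116, 74.9 and 109.9 CPM after vismodegib. It stood at 37.3, 43.9, 43.7, 46.4 and 39.8 CPM in Ki67-positive and at 46.1, 36.5, 30.7, 46.2 and 36.7 CPM in Ki67-negative nests. The untreated libraries lay in a narrow band that no vismodegib library entered. Sema4b rose by 1.28 on the log2 scale (SE 0.15, adjusted p = 8.35e-06) and by 1.39 (SE 0.15, adjusted p = 3.15e-06).

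Sema4f, a transmembrane semaphorin known from neurons and glia, was scarce in all nests, with 117 counts after vismodegib and 17 and 15 in the untreated groups. Its level was 1.85, 3.95, 3.27, 4.38 and 1.44 CPM after vismodegib, compared with 0.307, 0.482, 0, 1.26 and 0.202 CPM in Ki67-positive and 0, 1.84, 0, 0.151 and 0.15 CPM in Ki67-negative nests. Ki67-negative library 2 was the only untreated one within the vismodegib range. The log2 fold changes were 2.63 (SE 0.88, adjusted p = 0.0339) and 2.67 (SE 0.89, adjusted p = 0.0282). The first call was lost when vismodegib library 2, 3 or 4 was left out, or any Ki67-positive library but library 4 (adjusted p 0.0591 to 0.0752), and the second when vismodegib library 3 or 4 was left out, or any Ki67-negative library but library 2 (0.053 to 0.064). With the fibroblast covariate neither was called (2.89, adjusted p = 0.0532, and 2.98, adjusted p = 0.0539). Without Ki67-positive library 4 the first value was 3.55, and without Ki67-negative library 2 the second was 4.93.

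Sema6a, a class 6 semaphorin that binds A-type plexins, stood at 125, 75.7, 156, 183 and 162 CPM after vismodegib. Ki67-positive nests held 161, 340.4, 293, 245 and 337 CPM and Ki67-negative nests 332, 379.7, 247, 214 and 609 CPM. The vismodegib libraries lay below all Ki67-negative ones and overlapped Ki67-positive library 1. The log2 fold changes were -0.97 (SE 0.29, adjusted p = 0.0186) and -1.34 (SE 0.29, adjusted p = 0.00204), and the first was lost without Ki67-positive library 2 (-0.88, adjusted p = 0.0512) or with the fibroblast covariate (-0.77, adjusted p = 0.0889).

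Sema6d, of the same class, fell by 1.02 on the log2 scale against Ki67-negative nests (SE 0.16, adjusted p = 0.000116), at 25.9 to 32.1 CPM compared with 42.3 to 72.1 CPM there. Against Ki67-positive nests, at 30.3 to 47 CPM, it was not called (-0.35, adjusted p = 0.125). Sema4a fell by 0.77 against Ki67-negative nests (SE 0.22, adjusted p = 0.0144) and had a value of -0.56 against Ki67-positive nests (adjusted p = 0.0748), which was called without Ki67-positive library 1 (-0.65, adjusted p = 0.0493) and with the fibroblast covariate (-0.85, adjusted p = 0.0174). Sema5a, the most abundant semaphorin at 18.5 RPKM, had values of 0.21 (adjusted p = 0.505) and -0.06 (adjusted p = 0.846). Vismodegib library 4 held 1385 CPM of it and the other vismodegib libraries 551 to 695 CPM.

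Of the 8 plexins tested, the signalling receptors of semaphorins, Plxna2 rose and Plxna4 and Plxnb1 fell in both comparisons. Plxna2 stood at 146, 129.7, 116, 83 and 145 CPM after vismodegib, at 54.8, 28.9, 64, 33.9 and 52.6 CPM in Ki67-positive and at 54.5, 44.6, 38.6, 34.9 and 37.1 CPM in Ki67-negative nests. All 5 vismodegib libraries exceeded all 10 untreated ones. The rises were 1.40 (SE 0.22, adjusted p = 0.000106) and 1.56 (SE 0.22, adjusted p = 3.5e-05) on the log2 scale.

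Plxnb1, the main receptor of Sema4d, stood at 135, 154, 141, 102 and 141 CPM after vismodegib, compared with 229, 382, 198, 208 and 265 CPM in Ki67-positive and 225, 226, 255, 284 and 265 CPM in Ki67-negative nests, with no overlap. It fell by 0.93 (SE 0.17, adjusted p = 0.000403) and by 0.90 (SE 0.17, adjusted p = 0.000493). Plxna4, a partner of neuropilins in class 3 semaphorin receptors, fell by 0.95 (SE 0.30, adjusted p = 0.0256) and by 1.68 (SE 0.30, adjusted p = 0.000408). It stood at 9.8 to 27.5 CPM after vismodegib, and the untreated groups held 21.7 to 50.4 CPM (Ki67-positive) and 36.8 to 78.6 CPM (Ki67-negative). Its call against Ki67-positive nests did not survive leaving out vismodegib library 1 (adjusted p = 0.0691), 2 (0.0524) or 3 (0.0715) or library 3 of the Ki67-positive group (0.0891), nor the fibroblast covariate (0.0642).

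Plxna1, Plxna3, Plxnb2, Plxnc1 and Plxnd1 were called in neither comparison, with log2 fold changes from -0.35 to 0.40. Plxna1 and Plxnb2 were the most abundant plexins after vismodegib, at 29.8% ± 2.58 and 28.8% ± 3.46 of plexin RPKM. Plxna1 also led in Ki67-positive (28%) and Ki67-negative nests (28%). Of its 9054 exon bases, 970 (10.7%) are shared with an antisense gene, and strand use in counting is not known. The share of Plxna2 was 11.9% ± 1.51 after vismodegib, 4.66% ± 1.7 in Ki67-positive and 3.96% ± 0.847 in Ki67-negative nests, and that of Plxnb1 was 13.8% ± 1.44, 25.8% ± 4.6 and 24.8% ± 2.09. Plexin totals of 25.5 ± 3.41, 25.8 ± 3.62 and 26.8 ± 2.01 RPKM differed by less than their spread.

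Among the ephrins, Efnb2 rose and Efna1 fell in both comparisons. Efnb2, a ligand of EphB receptors, stood at 899, 516, 902, 930.1 and 830.3 CPM after vismodegib. It stood at 404, 444, 483, 311 and 474 CPM in Ki67-positive and at 428, 303, 230.4, 407 and 359 CPM in Ki67-negative nests. Vismodegib library 2 was well below its 4 group mates and still above every untreated library. The rises were 0.95 (SE 0.18, adjusted p = 0.000884) and 1.24 (SE 0.19, adjusted p = 7.04e-05) on the log2 scale.

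Efna1, a ligand of EphA receptors, stood at 48.6, 74.8, 63, 62.4 and 59.6 CPM after vismodegib, compared with 96, 117, 131, 112 and 94 CPM in Ki67-positive and 85.2, 117, 106, 99.6 and 159.6 CPM in Ki67-negative nests. The groups did not overlap, and it fell by 0.84 (SE 0.17, adjusted p = 0.00105) and by 0.88 (SE 0.17, adjusted p = 0.000601). Efna5 ranged from 45 to 90.9 CPM after vismodegib, and in untreated nests from 83.1 to 164 CPM (Ki67-positive) and 88.2 to 107 CPM (Ki67-negative). It fell by 0.78 against Ki67-positive nests (SE 0.20, adjusted p = 0.0073). Against Ki67-negative nests it was not called (-0.50, adjusted p = 0.0636), but was by voom (adjusted p = 0.0457), without vismodegib library 2 (adjusted p = 0.0311) and with the fibroblast covariate (adjusted p = 0.00457).

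The other 5 ephrins, Efna2, Efna3, Efna4, Efnb1 and Efnb3, were called in neither comparison, with log2 fold changes from -0.53 to 0.54. In the summed RPKM of the 8 ephrins, Efnb2 made up 60.4% ± 6.24 (SD, n = 5) after vismodegib, 37.7% ± 5.3 in Ki67-positive and 33.9% ± 6.29 in Ki67-negative nests. Efna1 made up 14.5% ± 4.45, 29.7% ± 2.37 and 34.1% ± 7.03. In untreated nests these 2 ligands lay close to each other, and after vismodegib Efnb2 prevailed.

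Of 5 tested EphB receptors, the class that binds ephrin-B ligands, Ephb1 and Ephb4 fell in both comparisons, Ephb3 was called lower against Ki67-positive nests, and none were called higher. Ephb3 was not called between the untreated groups (-0.33, adjusted p = 0.823). Ephb1, on chromosome 9 at 101922128 to 102354693 (GRCm38.p6), stood at 0.462, 0.949, 0.198, 0.365 and 0 CPM after vismodegib, which is 14 counts in 5 libraries. Ki67-positive nests held 22.6, 44.4, 41.7, 49.7 and 12.1 CPM (1269 counts) and Ki67-negative nests 30.7, 39.7, 53.1, 5.59 and 15.9 CPM (876 counts). No vismodegib library reached 1 CPM, and even the lowest untreated library, Ki67-negative library 4, held 5.59. The log2 fold changes were -6.47 (SE 0.73, adjusted p = 9.34e-06) and -6.23 (SE 0.73, adjusted p = 1.05e-05), or 88.6-fold and 74.9-fold lower. With the fibroblast covariate they were -7.56 and -7.43. Of its 7002 exon bases, 2.17% are shared with a non-coding gene on the opposite strand.

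Ephb4, the receptor that binds ephrin-B2 almost alone, stood at 80.3, 72.6, 89.3, 79.7 and 97.7 CPM after vismodegib. Ki67-positive nests held 176, 199.5, 176, 171 and 153 CPM and Ki67-negative nests 185, 198, 157, 168 and 243 CPM. The groups were far apart for their spread, and Ephb4 fell by 1.06 (SE 0.13, adjusted p = 1.45e-05) and by 1.18 (SE 0.13, adjusted p = 4.11e-06). Ephb3 stood at 49.1 to 76.8 CPM after vismodegib and fell by 0.84 against Ki67-positive nests, at 75.7 to 136 CPM (SE 0.20, adjusted p = 0.00507). Against Ki67-negative nests, at 51.9 to 105 CPM, it was not called (-0.51, adjusted p = 0.0629), but was without vismodegib library 2 (adjusted p = 0.023), without Ki67-negative library 4 (0.0199) or 5 (0.0429), and with the fibroblast covariate (0.00393). Ephb6, which lacks kinase activity, held 101 to 153, 114 to 168 and 101 to 166 CPM (log2 fold changes -0.04 and -0.02), and Ephb2 was not called.

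The A class was mixed. Epha1 stood at 88, 68.5, 75.4, 80.3 and 116 CPM after vismodegib, compared with 51.4, 59.2, 49.3, 60.2 and 35.2 CPM in Ki67-positive and 42.4, 63.7, 85.2, 48.9 and 55.2 CPM in Ki67-negative nests. It rose by 0.74 against Ki67-positive nests, with no overlap (SE 0.20, adjusted p = 0.00949). The rise of 0.54 against Ki67-negative nests (SE 0.20, adjusted p = 0.0461) was lost under 14 of 23 alternatives, among them leaving out vismodegib library 5 (0.41, adjusted p = 0.14) or Ki67-negative library 1 (0.44, adjusted p = 0.113). Leaving out vismodegib library 1, 3 or 4, library 1, 3 or 4 of the Ki67-positive group, or library 2, 4 or 5 of the Ki67-negative group also ended it. Epha1 shares 236 of its 3928 exon bases (6.01%) with Zyx on the opposite strand in the GENCODE annotation, and the use of strand in counting is not given in the sources used here.

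Epha4, a receptor for ephrins of both classes, stood at 145 to 209 CPM after vismodegib. It rose by 0.76 against Ki67-negative nests, at 78.5 to 146 CPM (SE 0.17, adjusted p = 0.0029), and had a value of 0.35 against Ki67-positive nests, at 111 to 181 CPM (adjusted p = 0.152). Epha7 stood at 5.09, 0.949, 0.891, 1.94 and 1.57 CPM after vismodegib, while the untreated groups held 2.38 to 8.29 CPM (Ki67-positive) and 4.53 to 15.9 CPM (Ki67-negative). It fell by 1.40 (SE 0.49, adjusted p = 0.0444) and by 2.23 (SE 0.50, adjusted p = 0.00238). The first call was lost under 13 of 23 alternatives, 10 of them the loss of 1 library: vismodegib library 2, 3, 4 or 5, library 1, 4 or 5 of the Ki67-positive group, or library 1, 3 or 4 of the Ki67-negative group. Without vismodegib library 1, the highest of its group, the falls were 2.01 and 2.84, and with the fibroblast covariate neither was called (adjusted p = 0.303 and 0.0568). Epha2 was not called. Epha3, at 0 to 1.22 CPM after vismodegib, 0.482 to 3.99 in Ki67-positive and 0.283 to 3.39 in Ki67-negative nests, had values of -2.05 (adjusted p = 0.0691) and -1.31 (adjusted p = 0.234).

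Over all 14 Eph receptors the summed level was 34.4 ± 2.88 RPKM after vismodegib, 41 ± 4.7 in Ki67-positive and 39.5 ± 4.69 in Ki67-negative nests. Ephb4 made up 15.3% ± 1.18 of it after vismodegib against 27.2% ± 1.54 and 31% ± 5.57, and Ephb1 0.0701% ± 0.0644 against 4.8% ± 1.99 and 4.21% ± 2.52. Epha1 made up 20.7% ± 2.83 against 10.5% ± 1.44 and 12.6% ± 2.53, and Epha4 23% ± 3.27 against 15.3% ± 2.53 and 12% ± 2.49. After vismodegib the leading receptors were thus Ephb6, Epha4 and Epha1, and in untreated nests Ephb4 led.

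**Figure D3:**
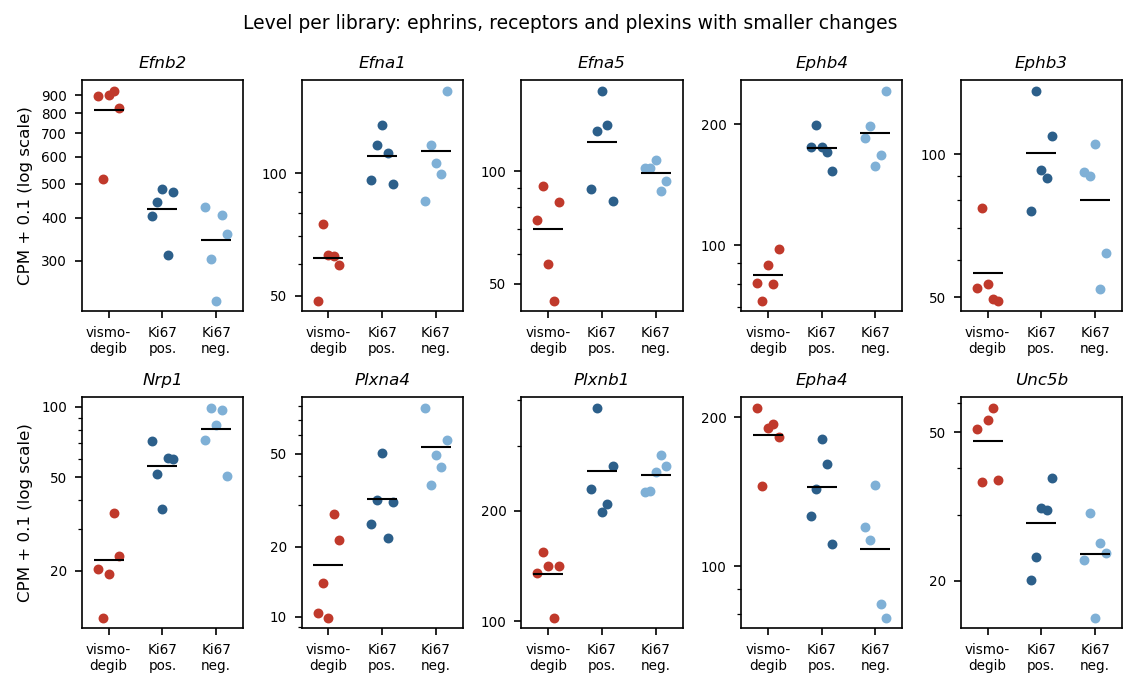
Level of 10 further members in each library (CPM + 0.1, log scale; points are libraries, lines group means) after vismodegib and in Ki67-positive and Ki67-negative nests. Efnb2 lies at 516 to 930.1 CPM after vismodegib and at 230.4 to 483 CPM in untreated nests, and its receptor Ephb4 at 72.6 to 97.7 against 153 to 243 CPM.

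In the Slit and Robo families, Robo2 alone was called. Robo2, a Slit receptor on chromosome 16 at 73891976 to 75447443, stood at 65.8, 60.7, 49.7, 103 and 70.6 CPM after vismodegib. It stood at 189, 172, 139.8, 254 and 244 CPM in Ki67-positive and at 169, 227, 189.6, 210.0 and 131 CPM in Ki67-negative nests. The vismodegib libraries all lay lower, and the fall was 1.51 (SE 0.21, adjusted p = 3.42e-05) and 1.41 (SE 0.21, adjusted p = 5.74e-05) on the log2 scale.

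Robo1, its close relative, stood at 51.6 to 115, 47.6 to 89.5 and 40.8 to 86.7 CPM (log2 fold changes -0.04, adjusted p = 0.915, and 0.32, adjusted p = 0.309). Robo2 supplied 45.2% ± 9.37 of Robo RPKM after vismodegib, 68.7% ± 6.38 in Ki67-positive and 72.7% ± 3.94 in Ki67-negative nests. Robo4, the endothelial member, held 0 to 6.64 CPM in all. Slit3 was the main ligand, with 91.7%, 91.6% and 90.5% of Slit RPKM, and had values of 0.08 (adjusted p = 0.809) and 0.06 (adjusted p = 0.853). Slit2 had values of 0.23 (adjusted p = 0.786) and -0.11 (adjusted p = 0.892).

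Of the 2 netrins among the members, Ntn1 stood at 7.09, 5.38, 8.31, 12.6 and 9.3 CPM after vismodegib. It stood at 24.4, 11.9, 18.9, 33 and 16.6 CPM in Ki67-positive and at 16.9, 26.3, 15.5, 14.2 and 5.83 CPM in Ki67-negative nests. It fell by 1.29 against Ki67-positive nests (SE 0.35, adjusted p = 0.0101), which was -0.79 (adjusted p = 0.135) with the fibroblast covariate. Against Ki67-negative nests it was not called (-0.88, adjusted p = 0.061), but was without Ki67-negative library 5 (-1.09, adjusted p = 0.0116), without vismodegib library 4 (-1.06, adjusted p = 0.0391) and by DESeq2 (-0.87, adjusted p = 0.0486). Ntn4, a basement membrane netrin, was the more abundant at 4.48 RPKM and was not called against either untreated group (0.23 and -0.33).

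Unc5b, a netrin receptor, stood at 50.9, 36.8, 54, 58.1 and 37.2 CPM after vismodegib, compared with 20, 23, 31.2, 30.9 and 37.6 CPM in Ki67-positive and 22.6, 30.3, 15.8, 25.2 and 23.6 CPM in Ki67-negative nests. It rose by 0.73 (SE 0.21, adjusted p = 0.0139) and by 1.01 (SE 0.21, adjusted p = 0.00137), and only Ki67-positive library 5 overlapped the vismodegib range. Unc5c, at 0.949 to 3.93 CPM after vismodegib, fell by 2.10 against Ki67-negative nests (SE 0.57, adjusted p = 0.0097), which held 0.898 to 16.2 CPM. That call was lost by voom (-1.59, adjusted p = 0.111) and with the fibroblast covariate (-1.81, adjusted p = 0.0649). Against Ki67-positive nests Unc5c had a value of -1.13 (adjusted p = 0.159).

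Between untreated nests, 0 of the 55 members were called in Ki67-negative against Ki67-positive nests by edgeR's quasi-likelihood test, beside 0.174% of all genes called lower and 0 called higher. Groups overlapped for every member tested, where 1.17% of all genes did not overlap. At an unadjusted p under 0.05 there were 6 members, Sema6d, Sema3b, Ntn4, Plxna4, Epha4 and Nrp1. Sema6d had the smallest p, with a log2 fold change of 0.68 (SE 0.16, adjusted p = 0.144) and levels of 57.1, 61, 65.4, 42.3 and 72.1 CPM in Ki67-negative and 47, 38.1, 30.3, 36 and 35 CPM in Ki67-positive nests. DESeq2 called it (0.69, SE 0.17, adjusted p = 0.0169) as its single member, and voom called 0. Sema3b followed with -0.96 (SE 0.26, adjusted p = 0.315). Log2 fold changes of all 55 lay between -0.96 and 0.97.

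**Figure D4:**
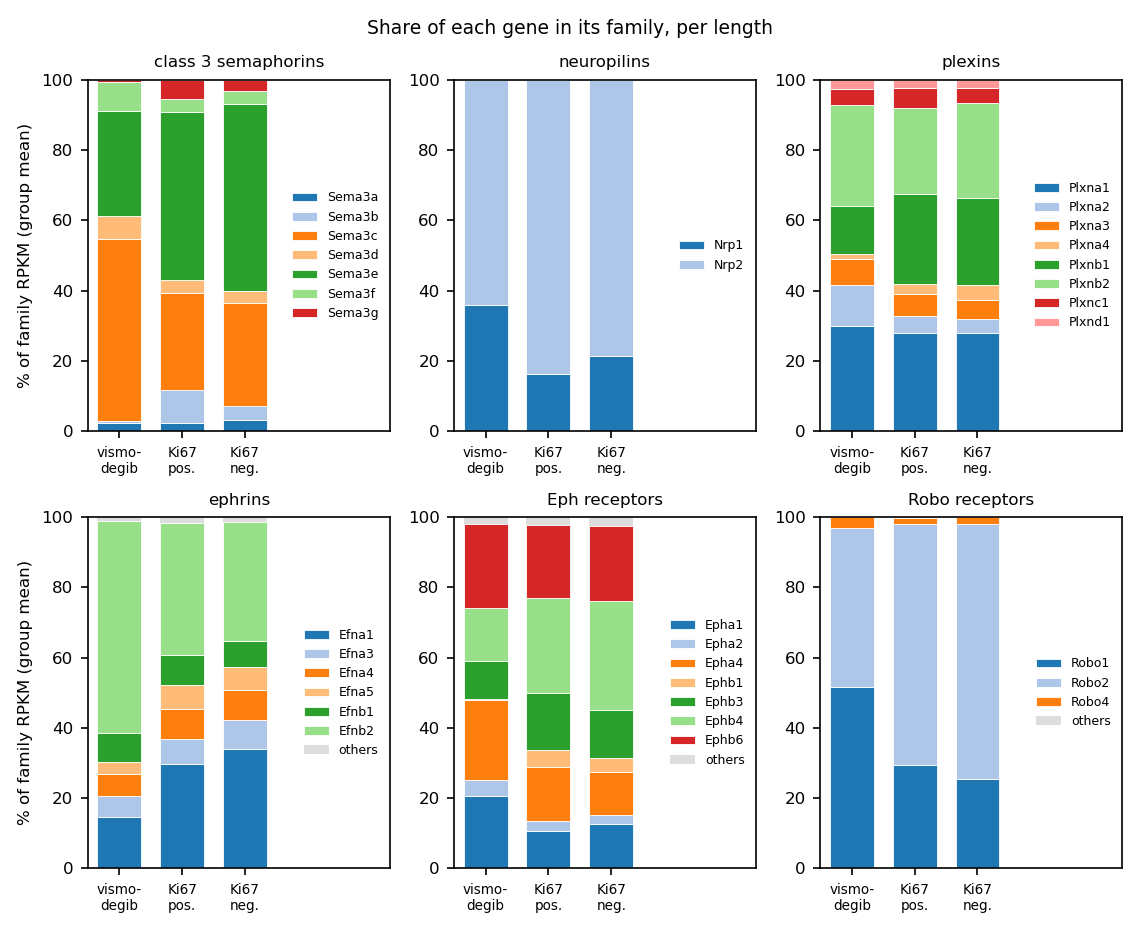
Mean share of each gene in the summed RPKM of its family (percent, bars stacked to 100) after vismodegib and in Ki67-positive and Ki67-negative nests. Efnb2 holds 60.4% of ephrin RPKM after vismodegib against 37.7% and 33.9%, Sema3c 51.8% of class 3 semaphorin RPKM against 27.6% and 29.2%, and Robo2 45.2% of Robo RPKM against 68.7% and 72.7%.

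A list of 74 other genes of the pathway (further ligands and receptors such as Ntn3 and Neo1, co-receptors, adhesion molecules, adaptors and regulators of actin) had 67 genes tested. Of these, 12 (17.9%) were higher and 20 (29.9%) lower against Ki67-positive nests, and 11 (16.4%) higher and 24 (35.8%) lower against Ki67-negative nests, beside 12.6% and 13.4%, and 15.4% and 16.5%, of all genes. The share higher against Ki67-negative nests lay near that of all genes. The median log2 fold change was -0.19 in each, and 0 were called between untreated nests (0 at an unadjusted p under 0.05, edgeR). Farp1, an exchange factor that acts below class A plexins, had the smallest adjusted p against Ki67-positive nests, at 40.7 ± 12.6 CPM after vismodegib against 208 ± 44.1 CPM (log2 fold change -2.35, adjusted p = 3.68e-07). Srgap1, a GTPase-activating protein recruited by Robo receptors, stood at 75 ± 20.5 against 401 ± 95 CPM (-2.42, adjusted p = 5.71e-07). Nck2, an adaptor that links receptors to actin, fell by 1.79 (adjusted p = 7.38e-06), and Nrcam, an adhesion molecule that joins Nrp2 in semaphorin receptors, fell by 2.33 (adjusted p = 1.53e-05).

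In the other direction, L1cam, an adhesion molecule that joins Nrp1 in receptors for Sema3a, stood at 113 ± 22.8 CPM after vismodegib against 28.5 ± 7.85 CPM in Ki67-positive nests (1.99, adjusted p = 1.23e-06). Met, the receptor tyrosine kinase that associates with B-type plexins, rose by 1.01 (adjusted p = 7.41e-05), Arhgef12, an exchange factor bound by B-type plexins, by 0.50 (adjusted p = 0.000707), and Pak3, a kinase activated by Rac and Cdc42, by 1.0 (adjusted p = 0.00128).

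Markers of nerve and other cell types were measured because many members are known from them. Of 7 neuron markers 1 could be tested and was not called, Nefl had 0 counts in every library, and the list summed to 3.4 to 4.9, 3.68 to 11.1 and 0.299 to 7.1 CPM. Schwann cell markers summed to 50.7 to 75.4, 50.2 to 109.6 and 52.4 to 105 CPM, with 1 higher and 0 lower of 6 tested against Ki67-positive nests and 1 higher and 1 lower against Ki67-negative nests. Melanocyte markers summed to 98 to 401, 335 to 1521 and 181 to 1191 CPM (4 of 6 lower against Ki67-positive nests, 1 higher and 3 lower against Ki67-negative nests). Suprabasal epidermis markers summed to 3560.1 to 4595, 248 to 586 and 225 to 489 CPM, with 8 and 9 of 9 higher, and dendritic and Langerhans cell markers to 714 to 2346, 100 to 481 and 134 to 465 CPM, with 7 and 5 of 7 higher. T cell markers summed to 78.6 to 158, 71.3 to 176 and 80.9 to 160.2 CPM (4 of 6 higher against Ki67-positive nests, 4 higher and 1 lower against Ki67-negative nests) and macrophage markers to 80.2 to 269, 36.2 to 132 and 62.9 to 283 CPM (1 of 7 higher, and 1 higher and 1 lower). Of the 10 keratinocyte and basal cell markers, 6 were higher and 1 lower against Ki67-positive nests and 6 higher against Ki67-negative nests. The part of suprabasal, dendritic and melanocytic cells in the members' values was not tested.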

How the data were processed

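Reads were aligned with GSNAP to GRCm38, per the submitters' processing notes. Per the file headers, the deposited counts are reads aligned uniquely to each gene model, and the deposited RPKM values carry a further division by the library's size factor. Aligner version, annotation release and strand use were not given in the sources used here. Of 36528 identifiers, 31049 (85%) matched a RefSeq symbol, and the others, with 2.26% to 3.93% of the counts per library, were fitted unnamed.

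Members, gene lists, marker lists and tests were chosen with earlier results of these data known. Counts were fitted over all 15 libraries with edgeR 4.0.16 in R 4.3.3 and its quasi-likelihood test (robust, TMM factors 0.937 to 1.050, 12 residual degrees of freedom, common biological coefficient of variation 0.348). The filterByExpr minimum was a count of 10 (total 15), and left 17282 genes. Tests were two-sided, and "called" means a Benjamini-Hochberg adjusted p under 0.05, with the adjustment over all 17282 genes. SE is the log2 fold change divided by the square root of F. CPM uses TMM-adjusted library sizes. RPKM served to compare levels between genes and to give family totals and shares per group. These totals and shares carry the deposited size factors and were not tested. The method was also run on simulated counts of independent libraries, which cannot show the effect of nests from the same mouse. No 2 libraries of a group were duplicates (chi-square per degree of freedom between them 14.33 to 46.79). Library numbers within a group follow accession order and only name a library. Motifs were searched as exact matches. Alternatives were RLE scaling, no or stricter filter (1 CPM in 5 libraries), DESeq2 1.42.0, voom (limma 3.58.1) and only 2 groups. Others were covariates for Xist over Ddx3y and for the mean log2 CPM of the fibroblast list, and each library left out. The fibroblast mean was 4.78 to 7.47 in vismodegib and 6.72 to 8.15 in untreated libraries. It thus goes partly with the group, and as a covariate it can take up part of the difference between groups.

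Per-library values are given in full for the 5 called members with the largest fold change in each direction against Ki67-positive nests and a mean of at least 1 CPM in the higher group, and for partners. Of other pathway genes, the 4 with the smallest adjusted p in each direction were named.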

Additional observations from a re-analysis of the deposited data

Results flagged for a closer look

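Libraries that stood far from the rest of their group of 5 were sought for the 55 tested members on the log2 scale of CPM + 0.5, in 165 groups. There were 16 (9.7%), where chance gives about 1 in 20, and 6 of them were Ki67-negative library 5, the library with the fewest genes detected. In that library Epha2 stood at 2.84 CPM against 13.7 to 23.9 in the other 4, Ephb2 at 0.748 against 6.45 to 13.5 and Sema3g at 1.2 against 8.23 to 15.2. Higher there were Slit2, at 34 against 17.8 to 20.8, Sema4d, at 19.9 against 8.64 to 10.6, and Plxna1, at 306 against 220.3 to 239.

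Vismodegib library 2 held 76.8 CPM of Ephb3 against 49.1 to 53.2, 516 of Efnb2 against 830.3 to 930.1, and 3.64 of Sema3a against 19.4 to 24.2. Vismodegib library 4 held 36 CPM of Sema4a against 73.2 to 85.4, 1385 of Sema5a against 551 to 695, and 11.7 of Sema3f against 25.9 to 33.4. Vismodegib library 5 held 22.3 CPM of Sema6c against 4.13 to 6.48. Ki67-positive library 2 held 47.6 CPM of Robo1 against 78.9 to 89.5 and 3.54 of Efna2 against 5.99 to 6.27, and Ki67-negative library 2 held 1.84 of Sema4f against 0 to 0.151.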

How the results depend on the processing

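Of 23 members called against Ki67-positive nests, 18 were called under each of 23 alternatives and 5 were lost under some, and against Ki67-negative nests 18 of 24 were called under each and 6 were lost under some. None of these called members changed direction. Leaving out 1 library gave 7 to 8 higher and 13 to 15 lower members against Ki67-positive nests, 7 to 10 and 15 to 18 against Ki67-negative nests, and 0 to 0 between untreated nests. DESeq2 called 1 member higher in Ki67-negative than in Ki67-positive nests (Sema6d), where edgeR called 0. Over all genes that comparison gave 30 calls with edgeR and 87 with DESeq2. The count was 15 with voom, 0 with only the 10 untreated libraries, and 0 without Ki67-positive library 4 or library 3, 4 or 5 of the Ki67-negative group. It was 2 without Ki67-positive library 5 and 12 without Ki67-negative library 2. The cause of these differences was not tested. The order of levels per length was the same for 67 of 67 members with CPM scaled by the gene constants implied by the deposited RPKM. These constants come from the same RPKM values, so only the scaling of libraries differed and the order could hardly change. No paired analysis was possible because the labels give no replicate numbers. Low counts limit Sema4f, Epha3, Epha7, Unc5c and the 12 untested members. They also limit the size of the fall of Ephb1, which had 14 counts in all after vismodegib.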
